A study of Oryctolagus cuniculus with 16 samples.

Results

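Oligodendrocyte progenitor cells (OPC) were sorted from premature rabbit kits with bleeding into the brain's ventricles. Kits given an adenovirus with the nuclear receptor PPARg were compared with kits given one with green fluorescent protein (GFP). The members are all count files labelled O4-positive, 4 whose titles name the treatment Ad-PPAR-r, called Ad-PPARg here, and 4 titled Ad-GFP, and make up 8 of the 16 libraries of the series. The other 8 libraries are microglia. Each OPC library carries the identifier of a different kit, and 6 of these 8 kits also gave a microglia library.

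All kits of both groups were New Zealand rabbits delivered early that had moderate to severe intraventricular hemorrhage (IVH), so no group without hemorrhage and no uninjected group stands beside them. One group received Ad-PPARg, a virus that carries PPARg together with GFP, and the other received Ad-GFP, in a volume of 5 µl into the ventricle. Expression was driven by the CMV promoter, which is not restricted to a cell type, so the vector was not limited to OPC. O4-positive cells were sorted from the cerebral hemispheres on day 7, and RNA was read as paired ends. PPARg is a ligand-activated transcription factor that pairs with the retinoid X receptor, binds DNA near its target genes, and is known for control of lipid metabolism genes and restraint of inflammatory genes. OPC divide and mature into the oligodendrocytes that make myelin, and IVH in premature newborns is known to hold back that maturation. Neighbouring genes can vary together across samples for many reasons, among them gene duplication, shared control elements, and gene models that overlap, so position and strand are given for each run of genes described here.

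Replicates are numbered within each group. The kit identifiers start with 3 different prefixes in the Ad-PPARg group, where replicates 2 and 3 share one, and with 2 in the Ad-GFP group, where replicates 1 and 2 share one and replicates 3 and 4 the other. No prefix occurs in both groups, so prefix and treatment cannot be told apart, and the labels do not say what the prefix stands for. Each file pairs an Ensembl identifier with positions but with no gene name, and 0 of 23669 identifiers matched the 38822 genes of the reference table. Genes are therefore given by chromosome, start, end and strand as the files hold them, and the roles of single genes and the level of the delivered gene by name were not analysed here. The defining markers of OPC could not be read by name either, so the identity of the sorted cells was not checked. Instead, 808 genes at least 16-fold higher in the Ad-GFP OPC than in the Ad-GFP microglia are called OPC-enriched and 782 genes with the opposite difference microglia-enriched. In the Ad-PPARg libraries, which this choice did not use, the OPC-enriched genes took 12.5% to 17.0% of the counts in OPC and 0.247% to 0.531% in microglia, so the 2 sorts differed in these genes in both treatments.

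Total counts were 11.8 M to 14.3 M in the Ad-PPARg libraries and 6.56 M to 15.8 M in the Ad-GFP libraries. Levels are counts-per-million values (CPM), and fold changes are on a log2 scale, Ad-PPARg over Ad-GFP, from edgeR's quasi-likelihood fit with p-values adjusted by Benjamini and Hochberg over all genes tested. The p-values measure the spread between these kits. In sorted bulk RNA, fewer cells of a type and less RNA per cell cannot be told apart.

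Ad-PPARg replicate 4 stood apart from the other 7 OPC libraries. It lay more than 2-fold above all 7 others in 441 genes and more than 2-fold below them in 1156 genes. The next largest numbers were 53 above and 175 below, in Ad-PPARg replicate 1, and 2 above and 96 below, in Ad-GFP replicate 4. In the 5 remaining libraries at most 17 genes lay so far out on either side.

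**Figure D1:**
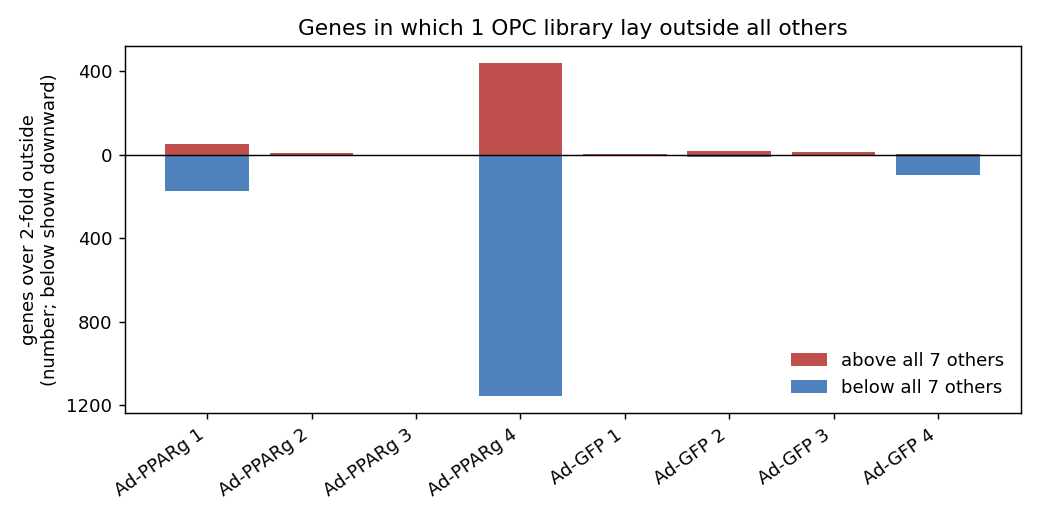
Number of genes (y axis) in which each OPC library (x axis, 4 Ad-PPARg and 4 Ad-GFP) lay over 2-fold above all 7 others (red, upward) or below all 7 others (blue, downward). Ad-PPARg replicate 4 holds 441 genes above and 1156 below, and replicate 1 holds 53 and 175.

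Of the 13492 genes tested, 808 (5.99%) were OPC-enriched and 554 (4.11%) microglia-enriched. Of the 441 genes in which replicate 4 lay above the others, 63 (14.3%) were OPC-enriched and 4 (0.907%) microglia-enriched. Of the 1156 genes below, 166 (14.4%) were OPC-enriched and 5 (0.433%) microglia-enriched. Both classes were chosen in part by their levels in the Ad-GFP OPC, which are among the libraries compared here. The choice by high levels there itself favours OPC-enriched genes among those below, so these shares are a description. Its OPC-enriched genes together took 17.0% of its counts, the highest share of the 8, against 12.4% to 14.6% in the others. Its median Spearman correlation with the other libraries, across genes, was 0.928, against 0.965 to 0.988 for the others, and limma's sample weighting gave it a weight of 0.0842 against 0.237 for replicate 1 and 0.778 to 3.52 for the rest. In replicate 1, 90 of the 175 genes far below the other libraries (51.4%) were microglia-enriched, against 4.11% of all genes tested. This class was chosen in part by low levels in the Ad-GFP OPC.

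A second feature was shared by Ad-PPARg replicates 1 and 4. Counts on mitochondrial genes that lie beyond position 7000 of the mitochondrial sequence took 0.0107% and 0.00802% of the counts in these libraries, 1.37% and 1.42% in replicates 2 and 3, and 1.5% to 1.82% in the Ad-GFP libraries. No Ad-GFP OPC library lacked this block. In the microglia, 3 of 8 libraries did, 2 of them Ad-PPARg and 1 Ad-GFP. Over all mitochondrial genes the share was 2.16% ± 0.660 (SD, n = 4) with Ad-PPARg and 3.09% ± 0.217 (SD, n = 4) with Ad-GFP, and the groups did not overlap (two-sided exact permutation p = 0.0286, the smallest that 4 against 4 allows, 0.1 after Benjamini-Hochberg adjustment over 7 measures). The part of the missing block in the other differences was not tested, but a fit without replicates 1 and 4 is given beside the main results.

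With all 8 libraries, no gene passed an adjusted p of 0.05 among 13492 tested (0%), and the lowest adjusted p was 0.608. At an unadjusted p under 0.05 there were 166 genes (1.23%), 103 higher and 63 lower with Ad-PPARg, where evenly spread p-values would give 675. Other tools called a few genes: DESeq2 called 7, and limma with sample weights called 9. At least 1.5-fold higher fitted values were found for 339 genes (2.51%) and at least 1.5-fold lower ones for 367 (2.72%).

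Without replicate 4, 2 of 13763 genes passed (0.0145%), and both fell with Ad-PPARg. At an unadjusted p under 0.05 there were 1051 genes (7.64%), 475 higher and 576 lower. At least 1.5-fold higher values were fitted for 422 genes (3.07%) and at least 1.5-fold lower ones for 497 (3.61%). The median standard error of the log2 fold change was 0.18, against 0.25 with all 8 libraries. These fits share the Ad-GFP libraries and 3 of the Ad-PPARg libraries, so the values of single genes are given side by side and neither fit is support for the other. For 1047 genes at an unadjusted p under 0.05 in the fit that left replicate 4 out, its own value was nearer to the mean of the other 3 Ad-PPARg libraries than to the Ad-GFP mean in 107 (10.2%). Over all genes that share was 31.3% for replicate 4. With replicates 1, 2 and 3 left out in turn, the same share was 41.8%, 23.2% and 39.2% of the genes at an unadjusted p under 0.05. Over all genes it was 43.0%, 25.1% and 29.0%, so 2 of these 3 lay just below and 1 above their share over all genes. Ad-GFP libraries left out in turn were nearer their own group in 61.0% to 75.7% of such genes, against 45.7% to 56.3% of all genes. For every library but replicate 4, the choice of genes and the Ad-PPARg mean included replicate 4. The shares are therefore not measured alike.

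Leaving out replicate 1 as well leaves Ad-PPARg replicates 2 and 3, which share an identifier prefix and hold the mitochondrial block, against the 4 Ad-GFP libraries. In this fit, added after the data were seen, 47 of 14599 genes passed (0.322%), 30 higher and 17 lower, and 1982 genes (13.6%) had an unadjusted p under 0.05. The difference between these kits and the Ad-GFP kits is also one between prefixes.

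The first of the 2 genes that passed without replicate 4 is ENSOCUG00000026122, on the plus strand of chromosome 4 from 73185240 to 73186517. Its level was 2.63, 3.30 and 2.38 CPM in Ad-PPARg replicates 1 to 3, and 14.3, 13.3, 20.0 and 23.2 CPM in the Ad-GFP libraries. Replicate 4 had 13.2 CPM, just under the lowest Ad-GFP library and far from the other Ad-PPARg libraries. Replicates 1 to 3 lay below all Ad-GFP libraries in this gene, as they did in 4.80% of all genes. The log2 fold change was -2.67 (SE 0.26) without replicate 4, with an adjusted p of 0.0304, and -1.72 (SE 0.55) with all 8 libraries. Of the 2 tested genes on each side of it, none had an unadjusted p under 0.05 in either OPC fit, and the nearest, from 72977654 to 72978738 and from 73487922 to 73643714, had log2 fold changes of 0.00 and 0.46 without replicate 4.

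The second is ENSOCUG00000016911, on the plus strand of chromosome 5 from 2736729 to 2825302. It had 17.1, 9.22 and 12.3 CPM in Ad-PPARg replicates 1 to 3 and 55.3, 44.6, 58.6 and 43.7 CPM in the Ad-GFP libraries. Replicate 4 had 45.1 CPM, inside the Ad-GFP range. The log2 fold change was -1.98 (SE 0.22) without replicate 4, with an adjusted p of 0.0483, and -1.28 (SE 0.45) with all 8 libraries. The next tested gene downstream, on the minus strand from 2853369 to 2933971, had 21.1 to 26.5 CPM in the 4 Ad-PPARg libraries and 30.4 to 37.5 CPM in the Ad-GFP libraries. These groups did not overlap, and the log2 fold change was -0.57 with and -0.53 without replicate 4, with adjusted p-values of 1.00 and 0.337.

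Both calls rest on treating the kits as independent. With the identifier prefix as a random effect, both genes had an adjusted p of 0.567 at log2 fold changes of -2.56 and -1.96, and with counts summed per prefix an adjusted p of 0.999. Leaving out any one of the 4 Ad-GFP libraries or Ad-PPARg replicate 2 or 3 raised both adjusted p-values above 0.05, while both genes passed without replicate 1, at 0.0265 and 0.00864.

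The microglia libraries were not used to pick these genes, although 3 kits of each treatment gave both cell types. In microglia the chromosome 4 gene had 3.12, 6.18, 1.35 and 2.34 CPM with Ad-PPARg and 10.4, 8.36, 8.98 and 15.2 CPM with Ad-GFP, and the groups did not overlap, which held for 4.15% of all genes in microglia. Its log2 fold change there was -1.71 (SE 0.43), with an edgeR p of 0.00282 and an adjusted p of 0.409. The chromosome 5 gene had 9.22, 12.5, 3.91 and 5.09 CPM against 15.0, 23.9, 27.2 and 26.7 CPM in microglia, again without overlap, with a log2 fold change of -1.60 (SE 0.36), an edgeR p of 0.0013 and an adjusted p of 0.409. In the microglia fit 0 of 13041 genes passed, and 1488 (11.4%) had an unadjusted p under 0.05, while DESeq2 called 121. Neither gene passed there.

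The 10 genes lowest in p without replicate 4 were 5 higher and 5 lower. They were chosen by p, so their OPC values are a description. Replicate 4 lay within the Ad-GFP range in 3 of them. In 4 of the 10 the Ad-PPARg and Ad-GFP libraries stayed apart with replicate 4 included, against 1.25% of all genes, which the choice by p favours. In microglia 6 of the 10 had an unadjusted p under 0.05, all in the direction seen in OPC, against 11.4% of all genes tested there, and none passed after adjustment, the lowest adjusted p being 0.142. No gene passed the test of a difference in effect between OPC and microglia, at a lowest adjusted p of 0.997 and with 402 of 14699 genes (2.73%) at an unadjusted p under 0.05. That fit has no term for the kit, although 6 kits gave both cell types, and its median standard error was 0.39. With the kit as a block, over the 12 libraries of these 6 kits and thus without Ad-PPARg replicate 4, again 0 of 14802 genes passed (0%), at a lowest adjusted p of 0.331 and with 660 genes (4.46%) at an unadjusted p under 0.05.

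**Figure D2:**
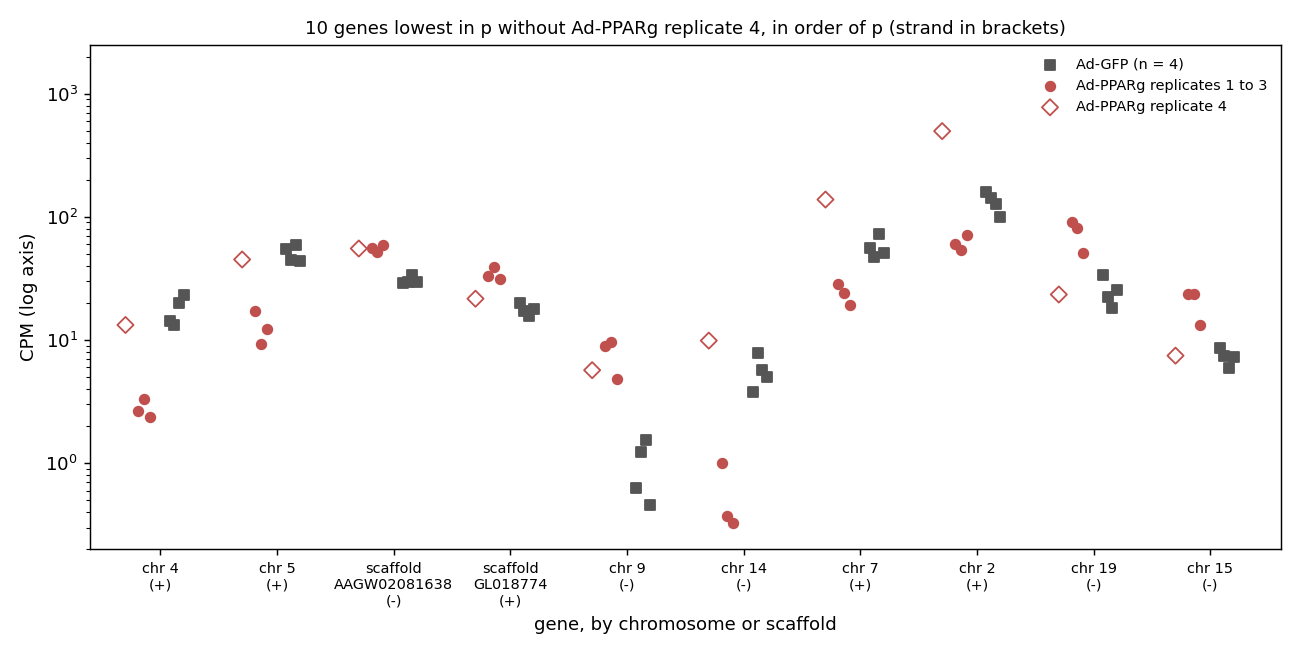
Level in CPM (y axis, log scale) of the 10 genes lowest in p without Ad-PPARg replicate 4 (x axis, by chromosome or scaffold and strand), for Ad-GFP (grey squares, n = 4), Ad-PPARg replicates 1 to 3 (red points) and replicate 4 (open diamonds). Replicate 4 lies with the other Ad-PPARg libraries for the gene on scaffold AAGW02081638. It lies within the Ad-GFP range for the genes on chromosomes 5, 19 and 15, and just under it for the gene on chromosome 4. For the genes on chromosomes 14, 7 and 2 it lies above all Ad-GFP libraries.

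Of the 5 higher genes, ENSOCUG00000029619, on the minus strand of scaffold AAGW02081638 from 14710 to 23433, varied least. Its level was 55.8, 51.6, 58.5 and 55.3 CPM with Ad-PPARg and 29.2, 29.4, 33.8 and 29.8 CPM with Ad-GFP. All 4 Ad-PPARg libraries, replicate 4 included, lay well above all 4 Ad-GFP libraries, and the log2 fold change was 0.86 (SE 0.12) with 8 libraries and 0.85 (SE 0.11) with 7, at adjusted p-values of 0.608 and 0.107. In microglia its log2 fold change was 0.42 (SE 0.15), with an edgeR p of 0.0171 and an adjusted p of 0.418.

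ENSOCUG00000013194, on the minus strand of chromosome 9 from 11495298 to 11632637, was among the 10 genes lowest in p in both fits. It had 8.90, 9.59, 4.85 and 5.69 CPM with Ad-PPARg and 0.628, 1.24, 1.53 and 0.456 CPM with Ad-GFP. The lowest Ad-PPARg library lay above the highest Ad-GFP library, and the log2 fold change was 2.89 (SE 0.44) with 8 libraries and 2.98 (SE 0.43) with 7, at adjusted p-values of 0.608 and 0.157. Its neighbours did not share this: the nearest tested genes on either side, from 11415964 to 11453328 and from 11735391 to 11932910, had log2 fold changes of 0.00 and -0.02 with 8 libraries. The gene belongs to the microglia-enriched genes: its mean level was 25.5 CPM in the Ad-GFP microglia and 0.964 CPM in the Ad-GFP OPC. All microglia-enriched genes together took overlapping shares of the counts in both OPC groups, given further on, and the part of microglial RNA in this gene's values was not tested. In microglia its log2 fold change was 0.56 (SE 0.21), with an edgeR p of 0.0221 and an adjusted p of 0.421.

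The other 3 higher genes lowest in p without replicate 4 lie on scaffold GL018774 from 1150188 to 1204510 (log2 fold change 0.95), on chromosome 19 from 42937680 to 42946719 (1.56) and at the start of the chromosome 15 run described further on. For the chromosome 19 gene the level was 90.9, 80.6 and 50.6 CPM in Ad-PPARg replicates 1 to 3, 23.4 CPM in replicate 4, and 18.3 to 33.8 CPM with Ad-GFP. Replicate 4 lay inside the Ad-GFP range.

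The other 3 lower genes ran against replicate 4 most strongly. A gene on chromosome 2 from 149407339 to 149483254 had 59.7, 53.7 and 71.5 CPM in replicates 1 to 3, 497 CPM in replicate 4 and 100 to 159 CPM with Ad-GFP. Its log2 fold change turned from -1.11 without replicate 4 to 0.36 with it. A gene on chromosome 7 from 35042153 to 35224950 had 28.6, 24.1 and 19.1 CPM, 138 CPM in replicate 4 and 47.4 to 71.9 CPM with Ad-GFP, and its log2 fold change was -1.24 without and -0.11 with replicate 4. A gene on the minus strand of chromosome 14 from 87023626 to 87023994 had 0.997, 0.375 and 0.329 CPM, 9.89 CPM in replicate 4 and 3.77 to 7.92 CPM with Ad-GFP, with a log2 fold change of -3.26 (SE 0.49) without and -0.97 (SE 0.96) with replicate 4. In all 3 genes replicate 4 was the highest of the 8 libraries. In microglia the log2 fold changes of these genes were -0.02, -1.50 and -3.51, and the last, with an edgeR p of 4.34e-05 and an adjusted p of 0.142, was the lowest in p of the 10.

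With all 8 libraries in the fit, 6 of the 10 genes lowest in p were higher and 4 lower, and in all 10 the groups did not overlap, against 1.25% of all genes, which the choice by p favours. A gene on the minus strand of chromosome 12 from 4447657 to 4499803 had 11.0, 18.4, 19.7 and 17.2 CPM with Ad-PPARg and 7.33 to 8.07 CPM with Ad-GFP (log2 fold change 1.11, SE 0.22). In microglia it had a log2 fold change of 1.43 (SE 0.49, edgeR p 0.0153, adjusted p 0.418). A gene on the plus strand of chromosome 16 from 2456397 to 2508864 had 66.5, 44.7, 66.6 and 50.5 CPM with Ad-PPARg and 80.5 to 93.4 CPM with Ad-GFP (log2 fold change -0.64, SE 0.16), and 0.31 (SE 0.13) in microglia. A gene on scaffold GL018733 from 2135172 to 2139996 was uneven within the group, with 2.71, 25.5, 7.07 and 20.0 CPM against 1.16 to 2.70 CPM with Ad-GFP. It too is microglia-enriched, with a mean of 145 CPM in the Ad-GFP microglia. Of these 10 genes, 5 had an unadjusted p under 0.05 in microglia, 3 of them in the direction seen in OPC.

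Larger groups of genes could be formed without names, from the comparison of the 2 sorted cell types and from gene length. Fold changes of the OPC-enriched genes are not counted, because the choice by high levels in the Ad-GFP OPC itself lowers them. All microglia-enriched genes together took 0.903%, 1.18%, 0.679% and 0.849% of the counts with Ad-PPARg and 0.672% to 1.01% with Ad-GFP, and the groups overlapped. Of 267 single-exon genes shorter than 300 bases, 208 had a log2 fold change above 0 with all 8 libraries, with a median of 0.32, against 7760 of 13492 and a median of 0.03 over all genes. Such genes took 0.663% of the counts in Ad-PPARg replicate 1, against 0.278% to 0.387% in the other 7 libraries.

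Runs of adjacent genes were defined as at least 3 neighbours in the order of tested genes, within 500 kb of each other, that were all at least 1.5-fold higher or all at least 1.5-fold lower. Since fold changes chose them, their OPC values are a description with no test. With 8 libraries there were 11 runs with 45 genes, of which 4 runs with 13 genes lay on chromosomes 12 to 15. Without replicate 4 there were 16 runs with 69 genes, of which 6 runs with 23 genes lay on chromosomes 12 to 15, all higher. No gene of any run had an adjusted p under 0.05 in either fit, the lowest being 0.177 on chromosome 15. On chromosomes 12 to 15, 4 runs consist of genes with several exons, 2 of short single-exon genes, and 1 further run, lower, appears with 8 libraries alone. In each of these 7 runs every gene that the files place between its ends was tested, so no untested gene interrupts it.

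**Figure D3:**
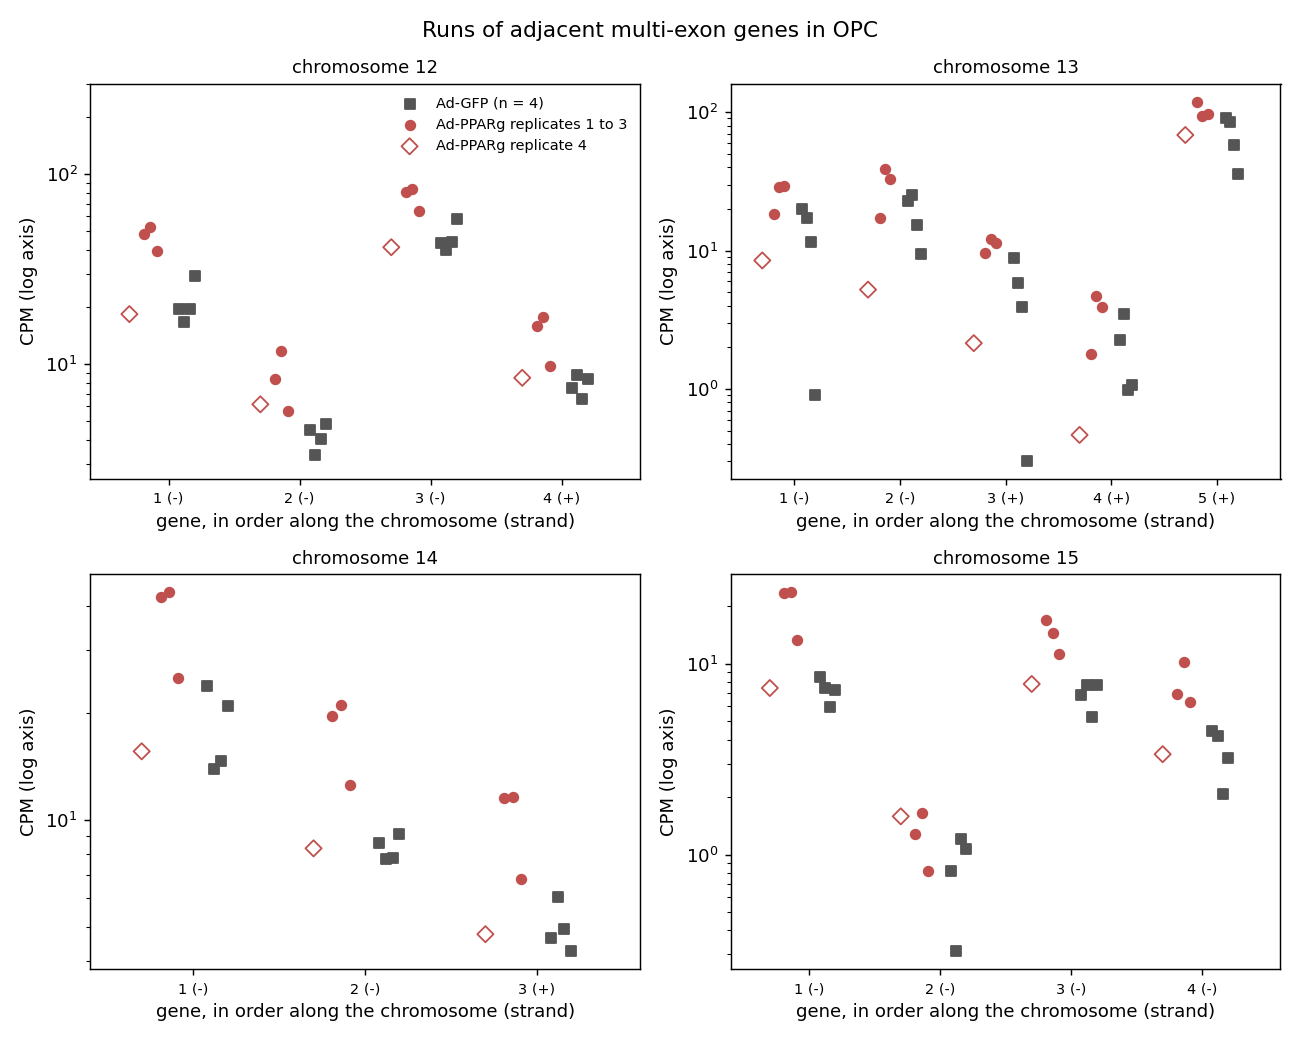
Level in CPM (y axis, log scale) of each gene of the 4 higher runs of genes with several exons (x axis, gene order with strand), for Ad-GFP (grey squares, n = 4), Ad-PPARg replicates 1 to 3 (red points) and replicate 4 (open diamonds). On chromosomes 12 and 14 replicates 1 to 3 lie above all Ad-GFP libraries in every gene, and on chromosome 13 they overlap with the Ad-GFP libraries in 3 of 5 genes. Replicate 4 lies within the Ad-GFP range in most genes. It lies above that range in 1 gene on chromosome 12 and 2 on chromosome 15, and below it in 2 on chromosome 13.

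The chromosome 12 run spans 33.0 kb, from 23346548 to 23379513, and holds 4 genes with 11, 6, 11 and 6 exons, the first 3 on the minus strand and the last on the plus strand. The gaps between them are 1515, 1365 and 134 bases, so the last pair starts from nearly the same place on opposite strands. Summed over the 4 genes, the level was 154, 166 and 119 CPM in Ad-PPARg replicates 1 to 3, 74.3 CPM in replicate 4, and 75.0, 68.8, 74.3 and 100 CPM with Ad-GFP. Replicates 1 to 3 lay above all Ad-GFP libraries in all 4 genes, a separation found in 4.82% of all genes on the higher side. The choice of runs by fold itself favours such separation. Replicate 4 lay within the Ad-GFP range in 3 of the 4 genes.

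The first gene of this run, from 23346548 to 23354606, had 48.3, 52.8 and 39.6 CPM in replicates 1 to 3, 18.4 CPM in replicate 4 and 19.5, 16.8, 19.5 and 29.0 CPM with Ad-GFP. Its log2 fold change was 1.16 without replicate 4 and 0.92 with it. The other 3 genes had 1.04, 0.71 and 0.89 without replicate 4 and 0.94, 0.54 and 0.73 with it, and the third falls under 1.5-fold with 8 libraries, which is why the run is absent there. The nearest tested genes outside it, ending at 23287878 on one side and starting at 23449679 on the other, had log2 fold changes of 0.24 and 0.03 without replicate 4, and the next ones out had 0.46 (SE 0.51) on either side. In the Ad-GFP microglia the summed level was 194 to 440 CPM, and 1 of the 4 genes, from 23356122 to 23360458, was microglia-enriched; the part of microglial RNA in the run was not tested. In microglia the 4 genes had log2 fold changes of 0.46, -0.11, 0.43 and 0.02, and none had an unadjusted p under 0.05.

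The chromosome 14 run spans 155 kb, from 96395561 to 96550831, and holds 3 genes, 2 on the minus strand followed by 1 on the plus strand. The first, ending at 96446674, had 42.5, 43.7 and 25.1 CPM in replicates 1 to 3, 15.6 CPM in replicate 4 and 23.8, 13.9, 14.7 and 21.0 CPM with Ad-GFP. The log2 fold changes of the 3 genes were 1.01, 1.09 and 1.00 without replicate 4 and 0.79, 0.89 and 0.80 with it. Replicates 1 to 3 lay above all Ad-GFP libraries in all 3 genes, against 4.82% of all genes, which the choice by fold favours. Replicate 4 lay within the Ad-GFP range in all 3. Upstream, the plus-strand gene from 96336069 to 96393161 had 18.4 CPM in replicate 1 and 7.29 to 8.79 CPM in the other 7 libraries, and downstream the gene from 96584241 to 96657840 had a log2 fold change of -0.23 without replicate 4.

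All 3 genes of the chromosome 14 run were microglia-enriched, and their summed level in the Ad-GFP microglia was 348 to 553 CPM, against 27.4 to 37.0 CPM in the Ad-GFP OPC. Over all microglia-enriched genes the summed share overlapped between the groups, at 0.679% to 1.18% with Ad-PPARg and 0.672% to 1.01% with Ad-GFP, and 349 of 554 had a log2 fold change below 0 with 8 libraries, a class chosen in part by low levels in these same Ad-GFP OPC. Of these 554, 13 had an unadjusted p under 0.05 on the higher side and 1 on the lower side. Among all 13492 genes tested the numbers were 103 (0.763%) and 63 (0.467%). The choice by low Ad-GFP levels itself favours the higher side, so these counts are a description. The run had summed levels of 73.7, 76.4, 44.4 and 28.6 CPM in Ad-PPARg replicates 1 to 4. All microglia-enriched genes together took 0.903%, 1.18%, 0.679% and 0.849% of the counts in these libraries. The part of microglial RNA in the run was not tested. In microglia themselves the 3 genes had log2 fold changes of 0.37, 0.28 and 0.23, none with an unadjusted p under 0.05.

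The chromosome 15 run spans 123 kb, from 61566358 to 61689295, and holds 4 genes, all on the minus strand. The second gene, of 405 bases from 61586254 to 61586663, lies inside the span of the first, which has 24 exons and runs from 61566358 to 61625050, so their reads may not be separable. The first gene had 23.5, 23.7 and 13.3 CPM in replicates 1 to 3, 7.46 CPM in replicate 4 and 8.54, 7.45, 5.91 and 7.29 CPM with Ad-GFP. Its log2 fold change of 1.46 (SE 0.23) without replicate 4 was the largest among the multi-exon runs on these chromosomes, and it was 1.22 (SE 0.36) with it. The third gene had 16.9, 14.5 and 11.3 CPM in replicates 1 to 3, 7.84 CPM in replicate 4 and 5.25 to 7.76 CPM with Ad-GFP, with log2 fold changes of 1.04 and 0.88. The last, from 61674650, had 6.98, 10.2 and 6.33 CPM, 3.36 CPM in replicate 4 and 2.08 to 4.46 CPM with Ad-GFP, with log2 fold changes of 1.14 and 0.94. In these 3 larger genes replicates 1 to 3 lay above every Ad-GFP library, against 4.82% of all genes, which the choice by fold favours. In the nested gene, at 0.310 to 1.65 CPM, the groups overlapped. Replicate 4 lay within the Ad-GFP range in 2 of the 4 genes and above it in 2.

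The neighbours of the chromosome 15 run lay nearer to 0 than those of the other 3 runs. Without replicate 4, the 2 tested genes before it had log2 fold changes of 0.01 and 0.02, and the 2 after it, both on the plus strand, had -0.11 and 0.19. In microglia the 3 larger genes had 0.34, 0.61 and 0.59, with edgeR p-values of 0.114, 0.0847 and 0.0982 and adjusted p-values of 0.51, 0.478 and 0.493, and the nested gene was too low to be tested. None of the 3 reached the 16-fold limit of the microglia-enriched genes. In the comparison of Ad-GFP cell types that set this class, they were 6.61-, 6.35- and 6.59-fold higher in microglia. The summed level of the run was 76.0 to 87.3 CPM in the Ad-GFP microglia, against 14.5 to 20.7 CPM in the Ad-GFP OPC. The part of microglial RNA in the run was not tested.

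The chromosome 13 run from 54434849 to 54516784 spans 81.9 kb and holds 5 genes, 2 on the minus strand and then 3 on the plus strand, with summed exon lengths of 660 to 1524 bases over 8 to 10 exons. Summed, it had 166, 179 and 175 CPM in replicates 1 to 3, 84.7 CPM in replicate 4, and 144, 136, 89.8 and 47.5 CPM with Ad-GFP. Unlike the other 3 runs, its spread within Ad-GFP was wide: the first gene had 19.9, 17.1, 11.6 and 0.911 CPM there, and 18.4, 28.9, 29.1 and 8.49 CPM with Ad-PPARg. Ad-GFP replicates 1 and 2, which share a prefix, lay above replicates 3 and 4, which share the other, in all 5 genes.

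The 5 genes of this run had log2 fold changes of 0.99, 0.69, 1.15, 0.78 and 0.61 without replicate 4 and 0.76, 0.38, 0.86, 0.46 and 0.49 with it, and none had an unadjusted p under 0.05 in either fit. Replicates 1 to 3 lay above all Ad-GFP libraries in 2 of the 5 genes, against 4.82% of all genes, which the choice by fold favours. Replicate 4 lay below all Ad-GFP libraries in 2 and within their range in 3. With the prefix as a random effect over all 8 libraries, the genes from 54464274 and from 54497508 had log2 fold changes of -0.25 and -0.07. In microglia the 5 genes had -0.18, 0.32, 0.20, -0.03 and -0.10.

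**Figure D4:**
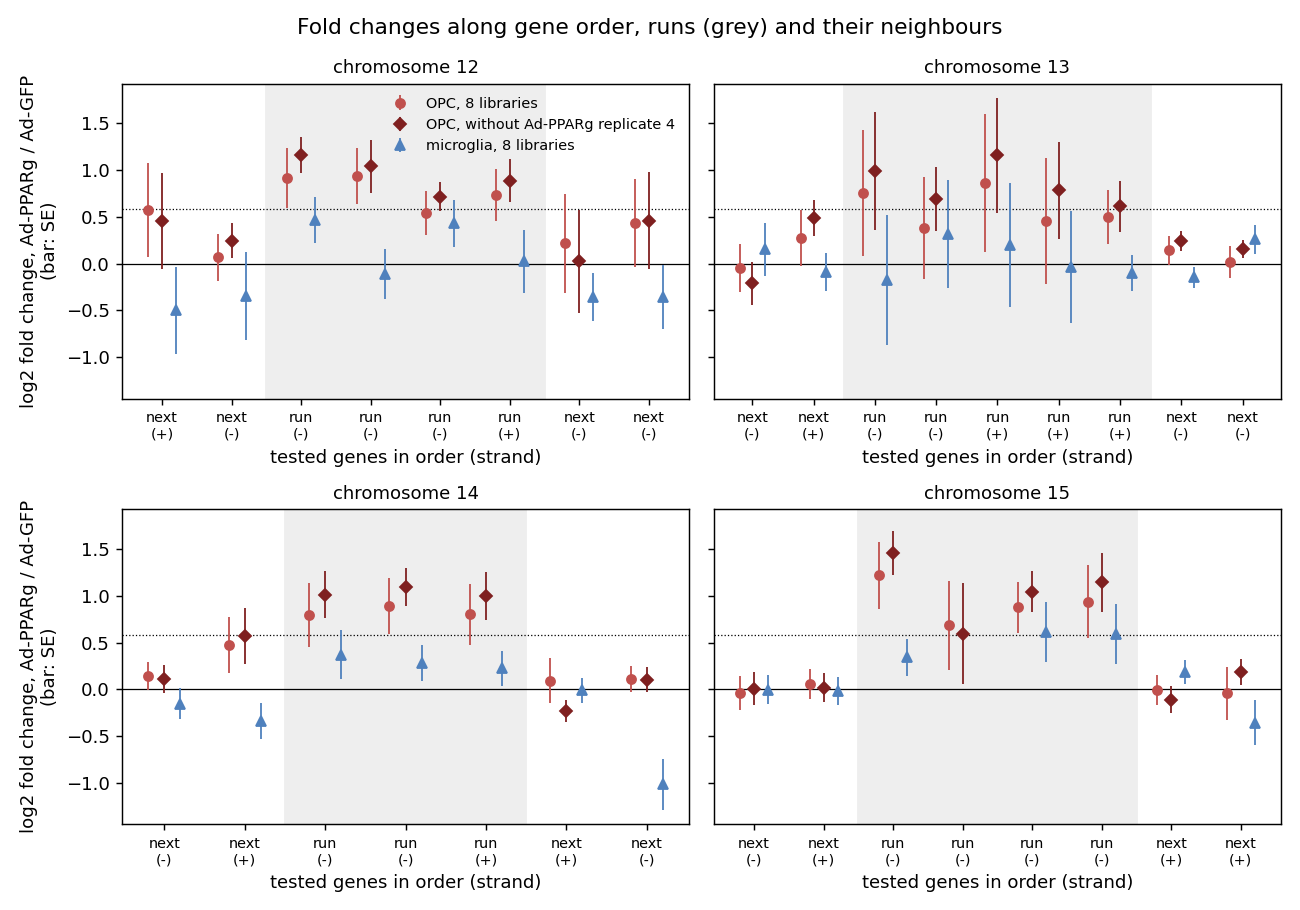
Log2 fold change, Ad-PPARg over Ad-GFP, with its standard error as a bar (y axis) for each run gene (grey area) and 2 tested neighbours on each side in gene order (x axis, with strand), in OPC with 8 libraries (circles), OPC without replicate 4 (diamonds) and microglia (triangles, absent where not tested). The dotted line marks 1.5-fold. On chromosome 15 the neighbours lie between -0.11 and 0.19 without replicate 4, and the run genes between 0.59 and 1.46.

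In all 4 runs Ad-PPARg replicate 2 had the highest sum of the 8 libraries, followed by replicate 1 or 3. With replicates 2 and 3 alone against Ad-GFP, the median log2 fold changes of the runs on chromosomes 12, 13, 14 and 15 were 0.94, 1.10, 0.90 and 1.06, beside 0.96, 0.78, 1.01 and 1.09 without replicate 4. The median over all genes was 0.01 in both fits. The fits share libraries, and replicates 2 and 3 helped to choose the runs. The difference between OPC and microglia did not pass for any run gene, at a lowest adjusted p of 0.997 without a kit term and 0.428 with the kit as a block. Of the 26 run genes on chromosomes 12 to 15, 1 had an unadjusted p under 0.05 without a kit term. With the kit as a block 8 did, against 4.46% of all genes, which the choice by OPC fold changes favours.

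The 2 runs of short genes had another pattern. One lies on the plus strand of chromosome 12, from 123075697 to 123077210, and its 3 genes of 72, 76 and 132 bases lie inside the span of a 6-exon gene on the same strand, from 123075000 to 123078772. The other lies on the minus strand of chromosome 13, from 1208683 to 1209644, with 4 genes of 77 to 82 bases. Summed levels on chromosome 12 were 22.1, 8.24, 7.32 and 9.23 CPM in Ad-PPARg replicates 1 to 4 and 4.89 to 8.66 CPM with Ad-GFP. On chromosome 13 they were 49.3, 16.4, 13.7 and 19.0 CPM and 12.0 to 15.1 CPM with Ad-GFP. Replicate 1 was the highest library in all 7 genes, and the other Ad-PPARg libraries lay close to or among the Ad-GFP libraries.

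**Figure D5:**
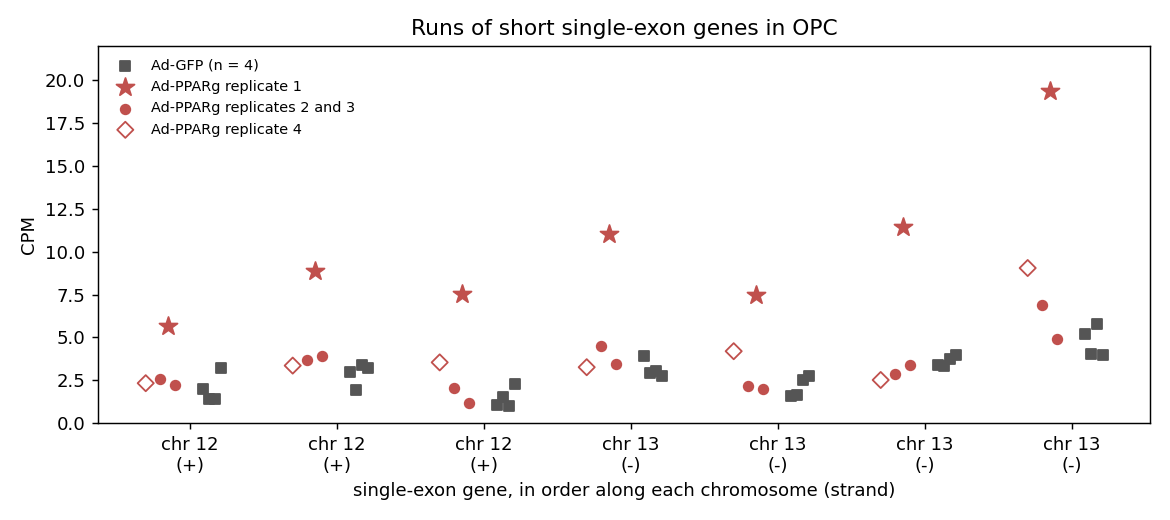
Level in CPM (y axis, from 0) of the 7 single-exon genes of the 2 short-gene runs (x axis, in order along each chromosome with strand), for Ad-GFP (grey squares, n = 4), Ad-PPARg replicate 1 (stars), replicates 2 and 3 (points) and replicate 4 (open diamonds). Replicate 1 is the highest library in every gene.

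The 6-exon gene around the chromosome 12 short genes did not share their fold changes: it had -0.01 with 8 libraries and 0.04 without replicate 4. Its level was 857, 618, 577 and 571 CPM with Ad-PPARg and 581 to 838 CPM with Ad-GFP. Replicate 1 was the highest library in this gene too, just above the highest Ad-GFP library. Without replicate 4 the short genes had log2 fold changes of 0.82, 0.94 and 1.32 on chromosome 12 and 0.99, 0.90, 0.72 and 1.13 on chromosome 13. Without both replicates 1 and 4, the median log2 fold change was 0.27 on chromosome 12 and 0.15 on chromosome 13. Whether the share of short single-exon genes in replicate 1, 0.663% of its counts, plays a part in these runs was not tested. The chromosome 13 short genes continue into 2 more genes on the same strand, starting at 1210281 and 1210915, with log2 fold changes of 0.56 and 0.53 without replicate 4.

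The lower run on chromosome 13, from 33204207 to 33280297, holds 3 plus-strand genes and appears with 8 libraries alone. Their log2 fold changes were -0.60, -0.63 and -1.11 with 8 libraries and -0.36, -0.46 and -1.01 without replicate 4. The groups overlapped in all 3 genes: the first had 8.12, 16.4, 11.3 and 4.29 CPM with Ad-PPARg and 15.8, 15.8, 9.85 and 19.3 CPM with Ad-GFP, and the third had no count in replicate 1 and at most 1.57 CPM in any library. In microglia the first gene had a log2 fold change of -1.04 (SE 0.23, edgeR p 0.00104, adjusted p 0.409), while the other 2 had 0.56 and -0.33.

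Runs outside chromosomes 12 to 15 included both kinds. On chromosome 19 from 19442778 to 19452324, 4 genes had log2 fold changes of 0.68 to 0.82 without replicate 4, all with an unadjusted p under 0.05 and the lowest at 0.00142, and 3 of the 4 are short single-exon genes. A run of 6 short plus-strand genes lies on scaffold GL018717, from 1509047 to 1510805. The 2 mitochondrial runs, of 4 and 14 genes, were lower, at -1.49 to -0.69 and -1.38 to -0.75 without replicate 4. The 14-gene run, from 7039 to 15445, lies in the block that was near 0 in replicate 1. The 4-gene run, from 5040 to 5346, lies outside that block. Mitochondrial genes up to position 7000 took 2.27% of the counts in replicate 1 and 1.17% to 1.51% in the other OPC libraries. On scaffold AAGW02081404, a minus-strand gene from 27532 to 27689, singled out after its values were seen, had 2761, 4.8, 4.52 and 1312 CPM with Ad-PPARg and 5.08 to 5.8 CPM with Ad-GFP. Its high libraries, replicates 1 and 4, are those that lack the mitochondrial block.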

How the data were processed

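RNA-seq was deposited as raw counts per gene for 8 OPC and 8 microglia libraries, with exon positions, strand and length. Per the submitters' processing notes the tools include bcl2fastq 2.17, STAR 2.5.2b and Subread 1.5.2. The build, the annotation and whether counting used strand were not given in the sources used here; genes that overlap are therefore uncertain.

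The main fit was edgeR 4.0.16 (R 4.3.3) on the deposited counts, with filterByExpr, TMM scaling and 4 Ad-PPARg against 4 Ad-GFP libraries, fitted with and without Ad-PPARg replicate 4. A prior count of 2 was used only for the log2 levels with which single libraries were compared. Microglia and the difference of effects were fitted alike, the latter also with the kit as a block. The threshold was an adjusted p of 0.05. DESeq2 1.42.0, limma 3.58.1, other scalings and filters, prefix models and left-out libraries were alternatives. Fits were tested on counts simulated with known fold changes. That simulation held no outlying library and no likeness between kits of one prefix, so it does not bear on either. The genes described are the 10 lowest in p per fit, the run genes and their neighbours. Members and lists were chosen with earlier results of these data known. Within each group, the 12 pairs of libraries differed by more than sampling noise (chi-square per gene 5.25 to 155).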

Additional observations from a re-analysis of the deposited data

Results flagged for a closer look

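In 100 groups of 4 libraries, made up of 42 genes and 8 library measures in both treatments, a single library lay beyond Dixon's critical value for the gap to the nearest other library in 10. Chance flags about 1 in 20 groups, but that rate does not apply here, since the genes were chosen by p or by fold: those lowest in p without replicate 4 were picked for agreement among replicates 1 to 3, and the runs of short genes for folds that replicate 1 carries. Of the 10, 4 are Ad-PPARg replicate 4, 4 are Ad-PPARg replicate 1 and 2 are Ad-GFP libraries.

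Ad-PPARg replicate 4 was far above the other 3 Ad-PPARg libraries in the chromosome 4 gene ENSOCUG00000026122 (13.2 CPM), the chromosome 14 gene from 87023626 (9.89 CPM), the chromosome 7 gene from 35042153 (138 CPM) and the chromosome 2 gene from 149407339 (497 CPM). All 4 genes are among the 10 lowest in p when that library is left out. Ad-PPARg replicate 1 was far above the others in 2 short genes on chromosome 12 (5.70 and 8.90 CPM) and 2 on chromosome 13 (11.0 and 11.5 CPM). Among the Ad-GFP libraries, replicate 3 was highest in ENSOCUG00000029619 (33.8 CPM against 29.2 to 29.8 CPM), and replicate 1 in the chromosome 19 gene from 10040240 (4.46 CPM against 1.01 to 1.42 CPM).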

How the results depend on the processing

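No paired analysis was possible because no kit received both treatments and the labels give no replicate numbers that the 2 treatments share; between cell types, 6 kits pair the libraries. With 8 libraries, the 0 calls became 7 with DESeq2, 9 with limma sample weights, 2 in a fit of all 16 libraries and 47 with replicates 2 and 3 alone (an alternative added after seeing the data), and ranged from 0 to 2 with single libraries left out. The 166 genes at an unadjusted p under 0.05 became 2198 with sample weights, 45 with counts summed per prefix, 36 with prefix as a random effect and 1982 with replicates 2 and 3 alone, and ranged from 111 to 1051, the highest without Ad-PPARg replicate 4 and 328 without replicate 2. Without replicate 4, the 2 calls became 1 with DESeq2's size factors in edgeR, 13 with no filter on low counts, 135 with DESeq2, 357 with sample weights, 0 with counts summed per prefix and 0 with prefix as a random effect, and ranged from 0 to 47 with a further library left out. The 1051 genes became 2510, 304 and 466 with sample weights, prefix sums and the random effect, and ranged from 590 without Ad-GFP replicate 1 to 1982 without Ad-PPARg replicate 1. The 11 runs became 4 at 2-fold, 3 at 4 or more genes and 6 with at least 10 counts in every library, and ranged from 7 without Ad-GFP replicate 2 to 28 without Ad-PPARg replicate 2, with 21 without replicate 3. The 16 runs without replicate 4 became 3 at 2-fold and 8 at 4 or more genes (added). The cause of these shifts was not tested.

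In microglia, the 0 calls became 121 with DESeq2 and ranged from 0 to 4 with 1 library left out, the highest without Ad-PPARg replicate 2. The count was 3 with Ad-GFP replicate 4 left out and 1 with replicate 1 left out. The difference of effects ranged from 0 to 1, the 1 without microglia Ad-PPARg replicate 2 (both added). With the kit as a replicate block the count was 0 in edgeR over 12 libraries and 0 in limma over 16, also added after seeing the data.

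Of 805 values of 43 genes under 19 settings, 16 changed sign, in 7 genes. The chromosome 7 gene had 0.17 with prefix sums and -1.24 to 0.22 with single libraries left out, the lowest without replicate 4. The chromosome 2 gene had -0.99 with sample weights, -0.13 with the random effect and -1.09 with replicates 2 and 3 alone, and -1.11 (without replicate 4) to 0.71 with single libraries left out. Of the short chromosome 13 genes, the second had -0.0102 with replicates 2 and 3 alone, and the third -0.21 there, -0.0678 with sample weights, and -0.30 (without replicate 1) to 0.73 with single libraries left out. In the chromosome 13 run with several exons, 2 genes had -0.25 and -0.0672 with the random effect. The gene on scaffold AAGW02081404 from 27532 had -0.22 with replicates 2 and 3 alone.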
